A study of Mus musculus with 16 samples.

Results

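Receptors of the tumour necrosis factor (TNF) superfamily were followed through 10 of their genes, Tnfrsf19, Edar, Fas, Tnfrsf1a, Tnfrsf1b, Tnfrsf11b, Tnfrsf12a, Tnfrsf21, Tnfrsf10b and Ngfr. Every probe set whose platform annotation gave one of these symbols was taken, which came to 19 of the 22626 probe sets that are not array controls. The 10 genes were chosen from values of these same arrays, so what follows describes them, and their calls in the fit across the array are given as description, not as tests of these genes. Messenger RNA was measured on 16 Affymetrix arrays in 2 lines derived from mouse small cell lung tumours, 3583T3 and 3151T4. Each line carried the retroviral vector MSCV-Nfib-PGK-Neo (G418 selection), MSCV-L-myc-PGK-Puro (puromycin selection), both vectors, or none, called Nfib, Mycl1, Nfib+Mycl1 and control here. There were 8 groups of 2 arrays, so 4 arrays per vector state. The control cells were untransfected, so an effect of a vector or its drug cannot be told apart from that of the gene it carries. Each line came from 1 tumour, and the labels do not say whether the 2 arrays of a group stem from separate cultures, so their spread may be technical.

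TNF receptors are membrane proteins with cysteine-rich ectodomains that bind ligands of the TNF family, which act as trimers. Some carry a death domain in the cytoplasmic tail, through which adaptors such as FADD can lead to caspase activation; others recruit TRAF adaptors and signal to NF-kB and stress kinases. Decoy members bind ligand without signalling. Nfib belongs to the nuclear factor I transcription factors, and Mycl1 (L-Myc, symbol Mycl in the annotation) is a MYC family factor that binds E-boxes.

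Values are log2 signals, and a log2 difference of 1 between groups is a fold of 2 in background-corrected signal. Groups were compared within a probe set. A probe set entered the fit across the array if it exceeded log2 4 on at least 2 arrays, which 13 of the 19 did, and these cover 9 of the 10 genes. It was called in a comparison at a Benjamini-Hochberg adjusted p under 0.05 over all 15799 probe sets tested with limma. Where a gene has several probe sets, the one with the highest mean over the 16 arrays stands for it.

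The transgenes, the neighbouring arrays and marker genes bear on how the values can be read. The Mycl probe set 1422087_at read 9.08 to 10.82 on the arrays labelled Mycl1, against 2.24 to 2.47 on control arrays. In line 3583T3 it went against 2 labels: it read 10.22 on the array labelled Nfib replicate 2, and 2.67 on the array labelled Nfib+Mycl1 replicate 2. Each of these 2 arrays correlated best with an array of the other's label, while 11 of the 16 arrays correlated best with their own replicate. Differences of the 10 receptor genes over both lines whose call changes without both arrays are therefore given both ways. Changes of sign or size in differences called neither way are given only in part. For example, Nfib+Mycl1 minus Nfib went from -0.09 to -0.52 for Fas and from -0.15 to -0.60 for Tnfrsf21. Tnfrsf10b with Nfib went from 0.09 to -0.12 against control. The Nfib probe set 1427680_a_at read 9.82 to 10.45 with the Nfib vector alone and 10.48 to 10.76 in control cells. With Nfib alone, the further Nfib probe sets 1416293_at, 1438244_at and 1448288_at overlapped control in 3583T3 and lay below it in 3151T4. Whether the probes of these sets lie in the cloned complementary DNA is not given in the sources used here. Of the neuroendocrine markers, 8 of 10 were on the array and 2 to 3 of the 8 exceeded log2 4 on an array; Ncam1 and Uchl1 did, while Chga, Chgb, Syp and Scg3 did not pass the filter. Leukocyte and macrophage markers went with the absence of a vector: 1 to 4 of 16 exceeded log2 4 on Nfib arrays, 2 to 4 on Mycl1 arrays and 2 to 3 on Nfib+Mycl1 arrays, against 11 to 14 on control arrays. In bulk RNA, fewer cells of a type and less RNA per cell cannot be told apart.

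Of the 10 genes, only Edar was called against control by more than 1 log2 unit at its brightest probe set with Nfib alone. Tnfrsf19, Fas and Tnfrsf1b were the genes so called with Mycl1 alone. Promoter windows of 300 bases are printed for these 4 genes, from 250 before to 50 after an annotated start. They come from RefSeq on GRCm38.p6, 5′ to 3′ along the gene's strand, and capitals mark the E-box CACGTG, which reads the same on both strands; no window of these 4 holds the short nuclear factor I motif TTGGC or its reverse complement.
Edar (minus strand, chr10:58675647-58675946): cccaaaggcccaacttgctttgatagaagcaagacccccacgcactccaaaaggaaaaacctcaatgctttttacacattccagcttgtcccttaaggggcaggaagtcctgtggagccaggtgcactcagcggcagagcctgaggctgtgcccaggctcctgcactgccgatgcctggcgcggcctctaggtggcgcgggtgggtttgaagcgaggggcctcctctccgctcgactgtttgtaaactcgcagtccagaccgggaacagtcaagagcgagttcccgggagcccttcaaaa
Tnfrsf19 (minus strand, chr14:61037938-61038237): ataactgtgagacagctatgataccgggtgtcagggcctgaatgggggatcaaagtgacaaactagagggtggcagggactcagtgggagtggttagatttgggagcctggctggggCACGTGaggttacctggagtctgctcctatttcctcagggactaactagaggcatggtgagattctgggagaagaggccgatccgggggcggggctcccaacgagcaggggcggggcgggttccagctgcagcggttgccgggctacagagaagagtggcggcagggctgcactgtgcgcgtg
Fas (plus strand, chr19:34290409-34290708): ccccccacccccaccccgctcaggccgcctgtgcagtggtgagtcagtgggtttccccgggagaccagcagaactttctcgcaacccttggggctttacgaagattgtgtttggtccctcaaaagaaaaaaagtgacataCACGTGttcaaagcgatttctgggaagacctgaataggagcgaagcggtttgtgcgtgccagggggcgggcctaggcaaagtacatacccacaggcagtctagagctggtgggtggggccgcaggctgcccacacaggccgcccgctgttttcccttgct
Tnfrsf1b (minus strand, chr4:145246821-145247120): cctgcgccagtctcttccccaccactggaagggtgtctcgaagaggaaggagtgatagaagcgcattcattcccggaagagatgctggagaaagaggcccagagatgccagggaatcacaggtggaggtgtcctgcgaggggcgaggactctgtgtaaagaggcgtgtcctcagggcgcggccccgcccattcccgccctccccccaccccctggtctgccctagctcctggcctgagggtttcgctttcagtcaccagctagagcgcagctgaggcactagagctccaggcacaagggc
The windows show where those letters occur and nothing about binding. RefSeq windows matched 8 of the 10 genes, 9 windows in all, since Tnfrsf19 has a second one. The window printed for Tnfrsf19 lies around a start inside the gene's span, chr14:60963834-61046855. Its second window, chr14:61046806-61047105, covers the upstream end of that span and holds neither motif. CACGTG is in 3 of the 9 windows, the printed one of Tnfrsf19 and those of Fas and Tnfrsf21, and in 7.15% of all 32851 windows. The motif TTGGC, on either strand, is in 3 of the 9 (Tnfrsf1a, Tnfrsf12a and Tnfrsf21) and in 46.7% of all windows. The full nuclear factor I palindrome, TTGGC and its reverse complement 5 bases apart, is in 0 of the 9 and in 0.0365% of all. The printed windows of Tnfrsf19 and Fas hold an E-box, at -133 and -110 relative to their starts, for Tnfrsf19 the internal one. With Mycl1 the signals of these genes moved in opposite directions.

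**Figure D1:**
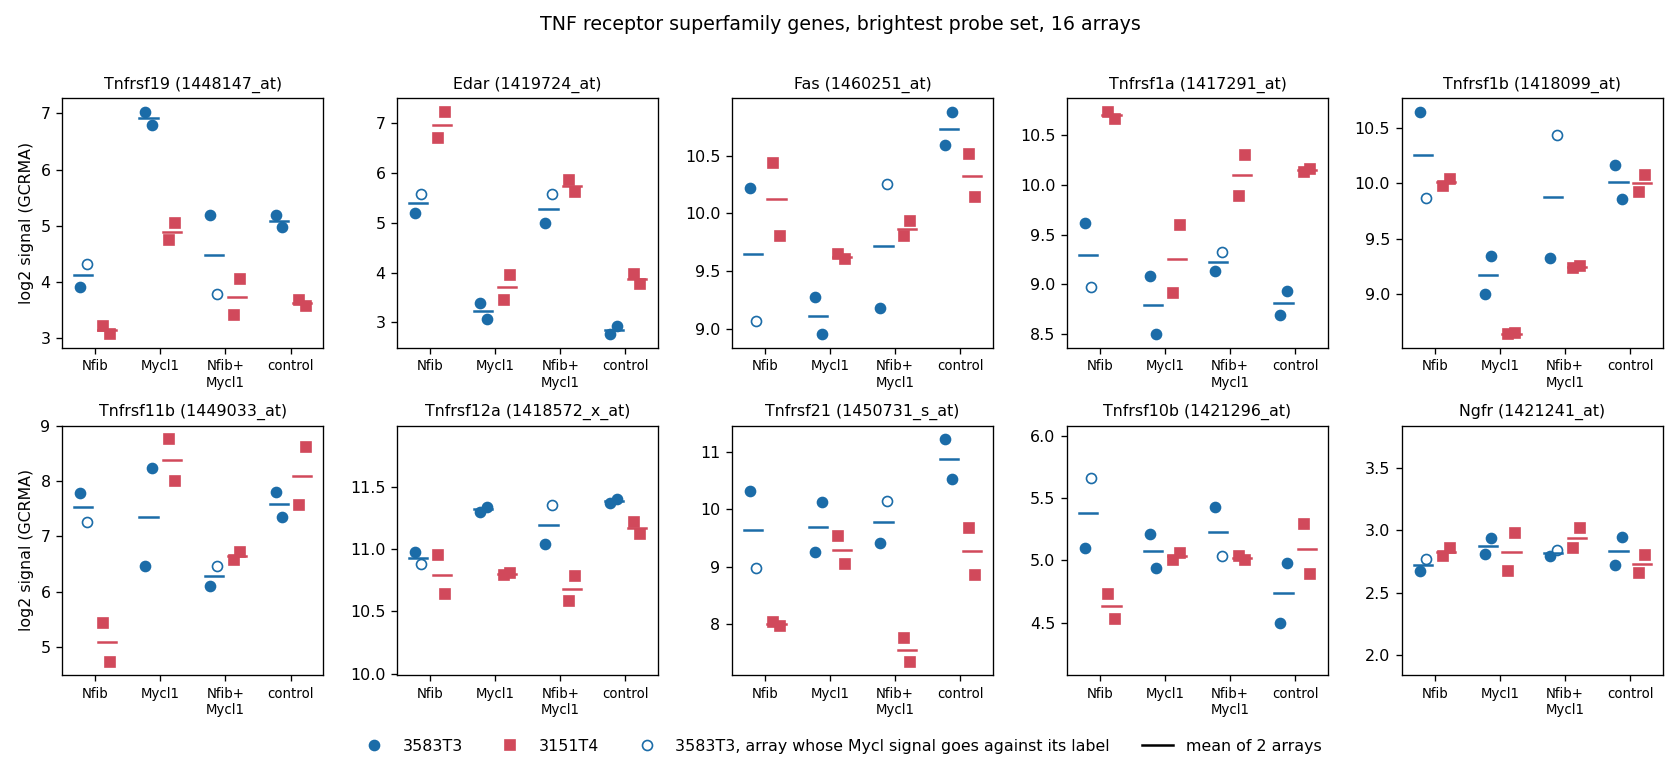
Log2 signal (y axis) of the brightest probe set of each of the 10 genes on the 16 arrays, by vector state (x axis); circles are line 3583T3, squares line 3151T4, open circles the 2 arrays whose Mycl signal goes against the label, and bars the mean of 2 arrays. Edar is high on every array with the Nfib vector, Tnfrsf19 is highest with Mycl1 in both lines, and Ngfr stays between 2.66 and 3.02.

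Edar, the receptor of ectodysplasin, carries a death domain and is known for the development of hair, teeth and skin glands; its gene spans chr10:58600780-58675696. In 3583T3 its 1 probe set, 1419724_at, read 5.20 and 5.58 with Nfib, 3.39 and 3.06 with Mycl1 and 4.99 and 5.57 with both, against 2.76 and 2.93 in control cells. In 3151T4 it read 6.70 and 7.23 with Nfib, 3.46 and 3.95 with Mycl1 and 5.86 and 5.61 with both, against 3.98 and 3.77 in control cells. The 8 arrays with the Nfib vector all lay above the 8 arrays without it. Those without it read 2.76 to 3.98, below the filter's log2 4, so the probe set passed the filter only through arrays with the vector. The difference from control was 2.82 ± 0.25 (SE, n = 4 arrays per vector state) with Nfib, a 7.05-fold higher signal, and 2.15 ± 0.25 or 4.43-fold with both. With Mycl1 alone it was 0.11 ± 0.25, and Nfib+Mycl1 exceeded Mycl1 by 2.04 ± 0.25. Without the 2 doubted arrays the Nfib difference was 2.86 ± 0.25 and the Nfib+Mycl1 difference 1.97 ± 0.25, both called.

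The order of the 8 groups for Edar ran 3151T4 Nfib, 3151T4 Nfib+Mycl1, 3583T3 Nfib, 3583T3 Nfib+Mycl1, 3151T4 control, 3151T4 Mycl1, 3583T3 Mycl1 and 3583T3 control. Among neighbours in it, the arrays overlapped between 3583T3 Nfib and 3583T3 Nfib+Mycl1, and between 3151T4 control and 3151T4 Mycl1. Edar was lower in 3583T3 than in 3151T4 by 0.88 ± 0.18 (difference -0.88, n = 8 arrays per line). The arrays without the Nfib vector, all below log2 4, enter this difference. In 3151T4 it was 1.23 lower with both vectors than with Nfib (difference -1.23 ± 0.27), while in 3583T3 the same difference was -0.11 ± 0.27. Without the 2 doubted arrays Nfib+Mycl1 minus Nfib was -0.89 ± 0.27 over both lines and was called, whereas with all arrays it was -0.67 ± 0.25 and was not. Fibroblast markers moved with Edar in part of the comparisons. Of 12 tested, 8 were called higher with Nfib and 3 with both, beside 8.46% and 29.0% of all probe sets called. With Mycl1, where Edar was not called, 4 were called lower, beside 9.96%. Without the 2 doubted arrays, 6 were called higher with Nfib and 2 with both, beside 7.89% and 32.7%. With Mycl1, 4 were then called lower, beside 17.5%. On every array 9 to 11 of the 12 exceeded log2 4. The log2 of the summed signal of these markers was 14.2 to 15.6 on Nfib arrays, 13.0 to 14.1 on Mycl1 arrays and 14.2 to 14.8 on Nfib+Mycl1 arrays, against 12.8 to 14.8 on control arrays. With both vectors, where Edar was higher than control in each line, it was 14.4 and 14.2 in 3583T3, against 12.8 and 13.2 in control cells. In 3151T4 it was 14.8 and 14.6, against 14.7 and 14.8. The mean log2 signal of these markers was 9.44 and 9.24 against 7.32 and 7.75 in 3583T3. In 3151T4 that mean was 9.55 and 9.26 against 9.15 and 9.17. Beyond these values, the part of fibroblast RNA in the Edar signal was not tested.

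Tnfrsf19, a receptor of the ectodysplasin receptor group that lacks a death domain and is expressed in embryonic skin and brain, ran the other way; its gene spans chr14:60963834-61046855. In 3583T3 its brightest probe set, 1448147_at, read 3.92 and 4.33 with Nfib, 7.03 and 6.80 with Mycl1 and 5.20 and 3.78 with both, against 5.19 and 4.98 in control cells. The 3151T4 arrays read 3.22 and 3.07 with Nfib, 4.75 and 5.05 with Mycl1 and 3.42 and 4.05 with both, against 3.69 and 3.58 in control cells. In each line both Mycl1 arrays lay above, and both Nfib arrays below, the control arrays. In 3151T4 the control and Nfib arrays all lay below the filter's log2 4. The difference from control was 1.55 ± 0.30 with Mycl1, 2.93-fold higher, and was called. It was -0.73 ± 0.30 with Nfib and -0.25 ± 0.30 with both, neither called; without the 2 doubted arrays the second turned to 0.11 ± 0.24, also not called.

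Adding the Nfib vector to Mycl1 went with a lower Tnfrsf19 signal: Nfib+Mycl1 minus Mycl1 was -1.80 ± 0.30, with both arrays below those of Mycl1 in each line. The 3583T3 arrays labelled Nfib+Mycl1 read 5.20 and 3.78, and the second is 1 of the 2 doubted arrays; without both, the difference was -1.44 ± 0.24. Nfib+Mycl1 minus Nfib was 0.48 ± 0.30 with all arrays, not called, and 0.82 ± 0.26, called, without the 2. Tnfrsf19 was 1.30 ± 0.21 higher in 3583T3 than in 3151T4, and the control and Nfib arrays of 3151T4, below log2 4, enter this difference. In the order of groups, 3583T3 Mycl1 stood at the top and 3151T4 Nfib at the bottom, each apart from its neighbour, while the 6 groups between them formed a chain of overlapping neighbours. Of the other probe sets, 1425212_a_at read 3.58 to 4.20 with Mycl1 and 2.94 to 3.36 in control cells and did not pass the filter, and 1415921_a_at lay at 2.17 to 2.69 on all arrays.

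**Figure D2:**
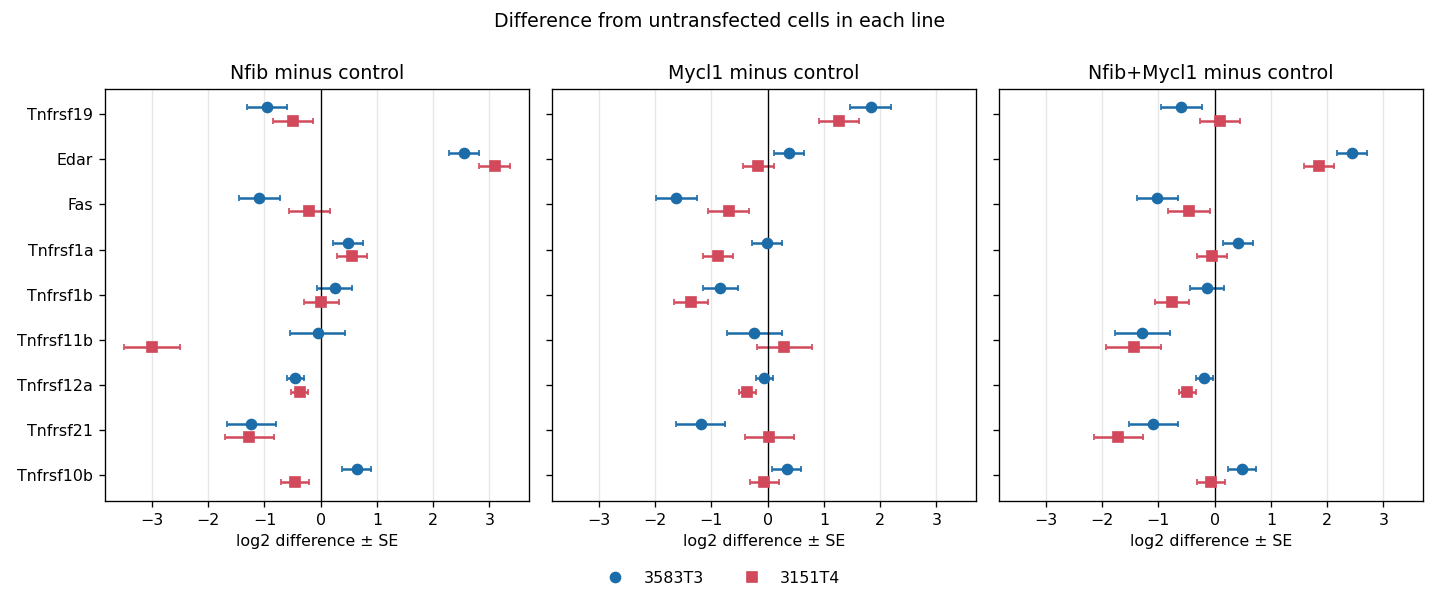
Log2 difference from untransfected cells (x axis, ± SE from the fit with 8 group means) for the 9 genes past the filter (y axis), in each line and for each vector state. Edar lies at 2.54 and 3.09 with Nfib in 3583T3 and 3151T4, Tnfrsf19 at 1.83 and 1.27 with Mycl1, and Tnfrsf11b at -0.05 and -3.00 with Nfib.

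The death receptors Fas and Tnfrsf1a and the TNF receptor Tnfrsf1b, which lacks a death domain, were well above the filter on every array. Fas, which binds Fas ligand and starts apoptosis, spans chr19:34290647-34327775. In 3583T3 its 1 probe set, 1460251_at, read 10.22 and 9.07 with Nfib, 9.27 and 8.95 with Mycl1 and 9.18 and 10.25 with both, against 10.59 and 10.88 in control cells. In line 3151T4 the readings were 10.44 and 9.80 with Nfib, 9.65 and 9.60 with Mycl1 and 9.80 and 9.93 with both, against 10.51 and 10.14 in control cells. The 4 Mycl1 arrays lay below the 4 control arrays. Within each line the Nfib+Mycl1 arrays also lay below control, while the Nfib arrays did so in 3583T3 and overlapped control in 3151T4. The difference from control was -1.16 ± 0.28 with Mycl1, a 2.23-fold lower signal that was called, -0.65 ± 0.28 with Nfib and -0.74 ± 0.28 with both. Leaving out 1 array at a time, the Mycl1 difference lay between -1.33 and -1.0, and the call was lost in 5 of 16 fits, without 3583T3 control replicate 1 or 2, 3583T3 Mycl1 replicate 1, 3151T4 control replicate 3 or 3151T4 Mycl1 replicate 4. Without the 2 doubted arrays the Nfib+Mycl1 difference was -0.92 ± 0.23 and was called, and the Nfib difference was -0.40 ± 0.23 and was not. The 2 control groups headed the order of groups and 3583T3 Mycl1 closed it, with overlapping neighbours from 3151T4 control down to 3151T4 Mycl1.

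Tnfrsf1b, the TNF receptor found mostly on immune and endothelial cells, spans chr4:145212368-145246870. In 3583T3 its brightest probe set, 1418099_at, read 10.65 and 9.87 with Nfib, 9.00 and 9.34 with Mycl1 and 9.32 and 10.44 with both, against 10.17 and 9.86 in control cells. The values in 3151T4 were 9.98 and 10.04 with Nfib, 8.63 and 8.64 with Mycl1 and 9.23 and 9.25 with both, against 9.92 and 10.08 in control cells. In each line both Mycl1 arrays lay below the control arrays. In 3583T3 the range of the Nfib+Mycl1 arrays overlapped those of Mycl1 and of control. Of these Nfib+Mycl1 arrays, the one at 10.44 is a doubted array, and the other, at 9.32, lay below both control arrays. In 3151T4 the Nfib+Mycl1 arrays stood between Mycl1 and control. The difference from control was -1.10 ± 0.22 with Mycl1, 2.15-fold lower and called, 0.13 ± 0.22 with Nfib and -0.44 ± 0.22 with both. The Mycl1 call was lost without 3151T4 control replicate 4, at a difference of -1.01. Without the 2 doubted arrays, Tnfrsf1b was -0.69 ± 0.16 with both vectors against control and -0.96 ± 0.17 against Nfib, and both were called. Between lines it was 0.36 ± 0.16 higher in 3583T3 with all arrays, not called, and 0.31 ± 0.11 higher, called, without the 2. A second probe set, 1448951_at, read 3.08 to 3.71 and did not pass the filter.

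Leukocyte markers fell in the same comparison as Fas and Tnfrsf1b: of 14 tested, 12 were called lower with Nfib, 13 with Mycl1 and 13 with both. The log2 of their summed signal was 7.64 to 9.99 on Nfib arrays, 7.97 to 8.74 on Mycl1 arrays and 7.77 to 8.23 on Nfib+Mycl1 arrays, against 11.8 to 13.8 on control arrays. With Nfib, where that sum was also low, the difference of Tnfrsf1b from control was 0.13, or 0.27 ± 0.16 without the 2 doubted arrays. Over the 16 arrays, which share 2 lines and 4 vector states, the correlation with the summed markers was 0.72 for Fas, 0.51 for Tnfrsf12a, 0.38 for Tnfrsf1b and 0.37 for Tnfrsf21, and was -0.46 for Tnfrsf10b and -0.42 for Edar; it lay between -0.07 and 0.13 for Tnfrsf19, Tnfrsf1a and Tnfrsf11b. Beyond these values, the part of leukocyte RNA in the receptor signals was not tested.

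**Figure D3:**
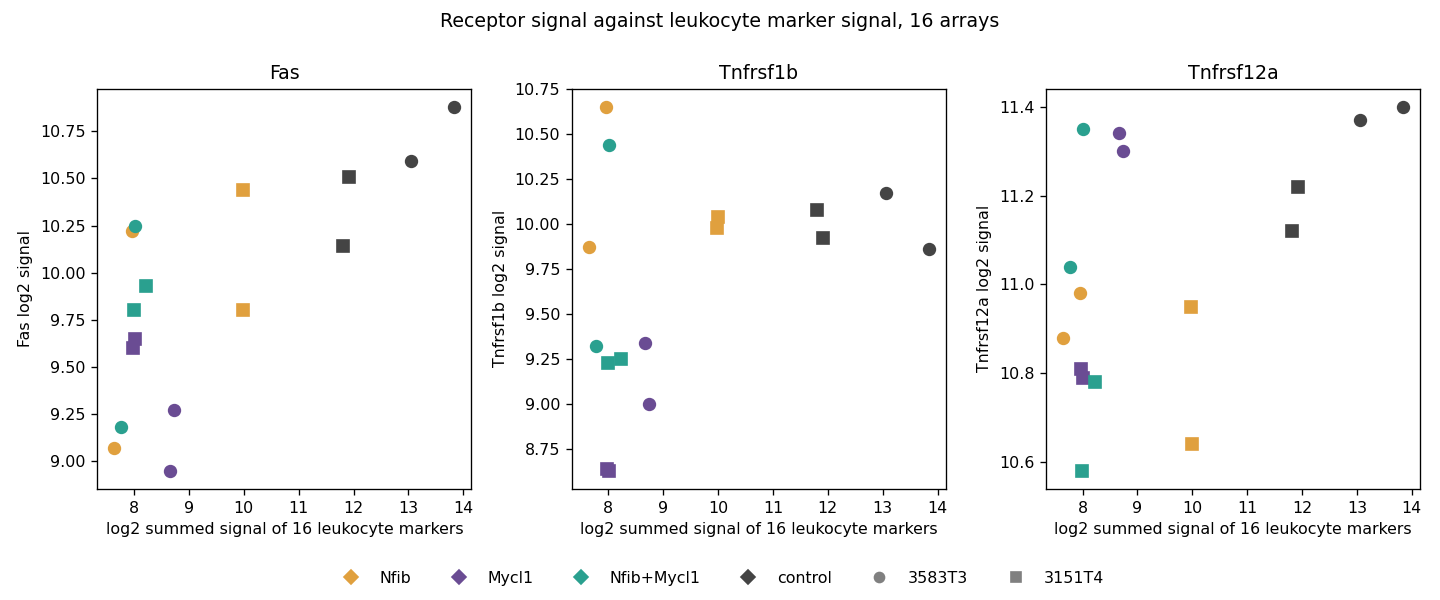
Log2 signal of Fas, Tnfrsf1b and Tnfrsf12a (y axes) against the log2 of the summed signal of 16 leukocyte and macrophage markers (x axis) on the 16 arrays, coloured by vector state, with circles for 3583T3 and squares for 3151T4. Control arrays lie at 11.8 to 13.8 on the x axis and all others at 7.64 to 9.99, and for Tnfrsf1b the Nfib arrays read 9.87 to 10.65 and the control arrays 9.86 to 10.17.

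Tnfrsf1a, the death-domain receptor of TNF found on most cell types, spans chr6:125349723-125362483 and differed by line. In 3583T3 its 1 probe set, 1417291_at, read 9.62 and 8.97 with Nfib, 9.08 and 8.50 with Mycl1 and 9.13 and 9.33 with both, against 8.69 and 8.93 in control cells. In 3151T4 it read 10.73 and 10.66 with Nfib, 8.91 and 9.60 with Mycl1 and 9.89 and 10.30 with both, against 10.13 and 10.16 in control cells. It was lower in 3583T3 than in 3151T4 by 1.02 ± 0.16 (difference -1.02), though the Mycl1 arrays of 3151T4 lay within the range of 3583T3. The differences from control were 0.52 ± 0.22 with Nfib, -0.45 ± 0.22 with Mycl1 and 0.19 ± 0.22 with both, none called. The Mycl1 difference was -0.02 ± 0.27 in 3583T3 and -0.89 ± 0.27 in 3151T4, and the difference between these responses, 0.87 ± 0.38, was not called.

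Tnfrsf11b, osteoprotegerin, is a secreted decoy receptor known for holding back bone-resorbing osteoclasts; its gene spans chr15:54250619-54278484. In 3583T3 its brightest probe set, 1449033_at, read 7.79 and 7.26 with Nfib, 6.46 and 8.23 with Mycl1 and 6.11 and 6.47 with both, against 7.81 and 7.35 in control cells. The 3151T4 arrays read 5.43 and 4.74 with Nfib, 8.76 and 8.01 with Mycl1 and 6.58 and 6.71 with both, against 7.56 and 8.62 in control cells. The Nfib arrays were the lowest in 3151T4 and overlapped the control arrays in 3583T3. The Nfib difference from control was -0.05 ± 0.49 in 3583T3 and -3.00 ± 0.49 in 3151T4, 8.01-fold lower there. With both vectors it was -1.29 in 3583T3 and -1.44 in 3151T4, and the 4 Nfib+Mycl1 arrays lay below the 4 control arrays, though the difference over both lines, -1.36 ± 0.59, was not called.

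The Nfib response of Tnfrsf11b in 3583T3 minus that in 3151T4 was 2.95 ± 0.69 and was called. Without the 2 doubted arrays, which leaves only Nfib replicate 1 in 3583T3, at 7.79, it was 3.22. The call was lost without 3583T3 control replicate 2, 3151T4 control replicate 4 or 3151T4 Nfib replicate 4, and across the 16 fits that left out 1 array the difference lay between 2.42 and 3.48. The other probe set, 1418309_at, read 4.43 and 4.19 with Nfib against 4.54 and 3.91 in control cells of 3583T3, and 3.32 and 3.08 against 4.40 and 4.19 in 3151T4. Its difference between lines was 1.17 ± 0.41, not called. Leukocyte markers also responded differently by line in the Nfib comparison, with 10 of 14 called as falling further in 3583T3, and their part in this result was not tested.

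Tnfrsf21, a death-domain receptor with roles in neuron death and T cell activation, spans chr17:43016555-43089188. In 3583T3 its brightest probe set, 1450731_s_at, read 10.32 and 8.97 with Nfib, 9.25 and 10.13 with Mycl1 and 9.42 and 10.15 with both, against 11.23 and 10.53 in control cells. In line 3151T4 the readings were 8.04 and 7.96 with Nfib, 9.53 and 9.05 with Mycl1 and 7.75 and 7.34 with both, against 9.68 and 8.85 in control cells. In each line the arrays with the Nfib vector, alone or with Mycl1, lay below the control arrays. The difference from control was -1.25 ± 0.38 with Nfib, not called, and -1.41 ± 0.38 with both, called. The second probe set, 1422740_at, was called in both, at -1.01 ± 0.29 with Nfib and -1.07 ± 0.29 with both. It was dimmer, and in 3583T3 read 5.46 and 4.05 with Nfib and 4.22 and 4.86 with both, against 6.37 and 5.79 in control cells. In 3151T4 it lay near or below the filter's log2 4, at 3.35 and 3.32 with Nfib and 3.62 and 3.23 with both. Control cells of that line read 4.10 and 3.95. Without the 2 doubted arrays the brightest probe set differed from control by -1.06 ± 0.37 with Nfib, not called, and by -1.66 ± 0.37 with both, called, and the second by -0.76 ± 0.29, no longer called, and -1.11 ± 0.29, called. With Mycl1 the brightest probe set differed from control by -1.19 ± 0.44 in 3583T3 and 0.02 ± 0.44 in 3151T4, a difference between lines of -1.22 ± 0.62 that was not called. The leukocyte markers given above fell in these 3 comparisons too, and their part in the Tnfrsf21 values was not tested. Tnfrsf21 was 1.47 ± 0.27 higher in 3583T3 than in 3151T4.

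Tnfrsf12a, the small receptor of the cytokine TWEAK, known for its induction in injured tissue, spans chr17:23675445-23677449 and varied little. Its brightest probe set, 1418572_x_at, read 10.98 and 10.88 with Nfib, 11.30 and 11.34 with Mycl1 and 11.04 and 11.35 with both in 3583T3, against 11.37 and 11.40 in control cells. The values in 3151T4 were 10.95 and 10.64 with Nfib, 10.79 and 10.81 with Mycl1 and 10.58 and 10.78 with both, against 11.22 and 11.12 in control cells. The 4 Nfib arrays lay below the 4 control arrays, by 0.41 ± 0.11 on average (difference -0.41, called), and Nfib+Mycl1 was called at -0.34 ± 0.11. These differences are 1.33-fold and 1.26-fold, and each call was lost in 10 of 25 alternative fits; without the 2 doubted arrays the Nfib difference was -0.36 ± 0.11, not called, and the Nfib+Mycl1 difference -0.42 ± 0.11, called. The second probe set, 1418571_at, gave -0.42 ± 0.13 with Nfib and -0.27 ± 0.13 with both, neither called; without the 2 doubted arrays its difference with both was -0.39 ± 0.11 and was called. Tnfrsf12a was 0.35 ± 0.08 higher in 3583T3 than in 3151T4.

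Tnfrsf10b, the mouse death receptor of TRAIL, spans chr14:69767472-69784411 and was dim. Its brightest probe set, 1421296_at, read 5.10 and 5.66 with Nfib against 4.50 and 4.98 in control cells of 3583T3, and 4.73 and 4.53 with Nfib against 5.29 and 4.89 in control cells of 3151T4. Nfib arrays were thus above control in 3583T3 and below it in 3151T4, by 0.64 ± 0.25 and -0.46 ± 0.25, and the difference between these responses, 1.10 ± 0.36, was not called. The second probe set, 1422344_s_at, showed 0.42 and -0.50, with a difference of 0.92 ± 0.30 that was not called. Without the 2 doubted arrays, which leaves only Nfib replicate 1 in 3583T3, these differences between lines were 0.82 and 0.84. With Mycl1 and with both vectors the arrays read 4.94 to 5.43. Ngfr, the low-affinity neurotrophin receptor with a death domain, spans chr11:95568818-95587698, and its 3 probe sets read 1.85 to 3.02 on all arrays, so it was not tested.

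**Figure D4:**
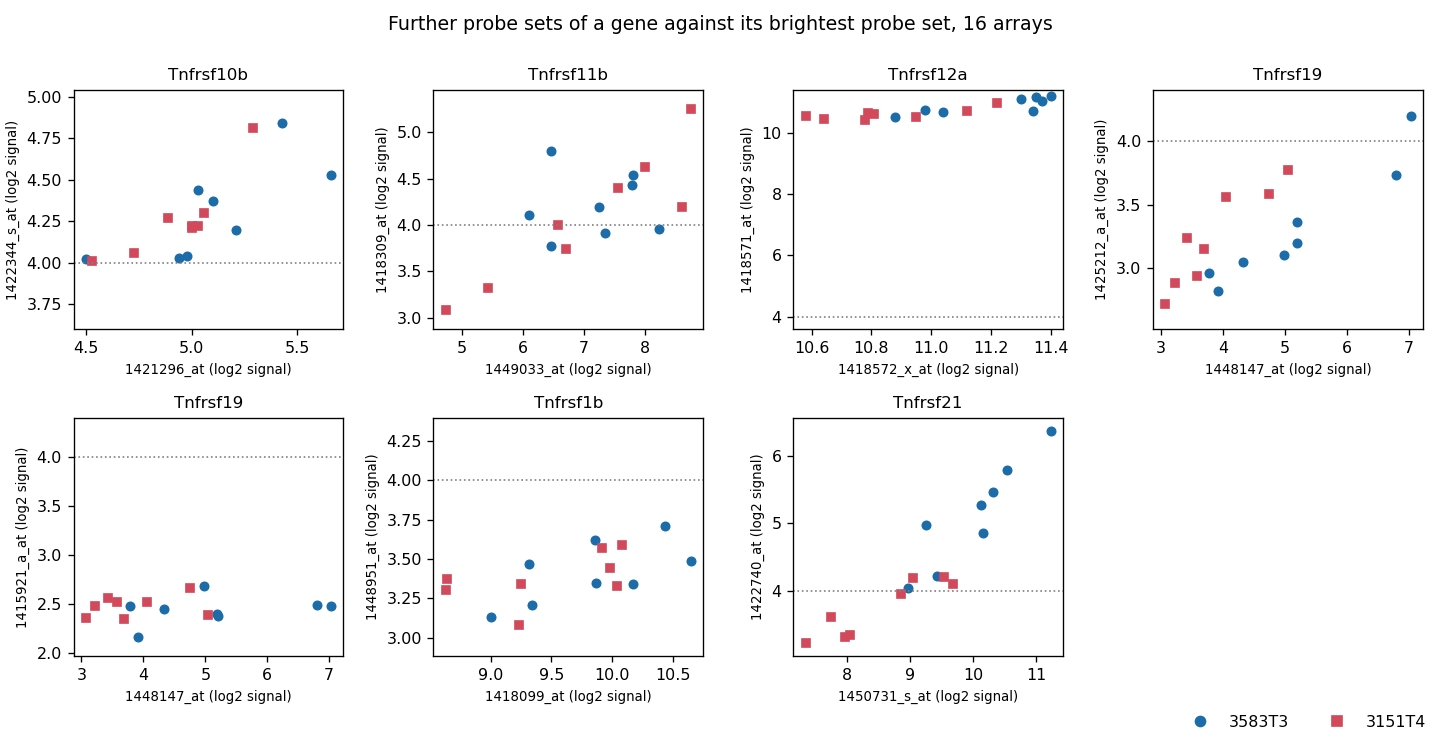
Log2 signal of the further probe sets of a gene (y axes) against its brightest probe set (x axes) on the 16 arrays for Tnfrsf10b, Tnfrsf11b, Tnfrsf12a, Tnfrsf19, Tnfrsf1b and Tnfrsf21; the dotted line is the filter at log2 4. The pairs of Tnfrsf21 and Tnfrsf12a run together (r = 0.93 and 0.85), while Tnfrsf19's 1415921_a_at stays at 2.17 to 2.69.

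Counted over the 9 genes tested, 2 were called with Nfib (Edar higher, Tnfrsf12a lower), beside 8.46% of all probe sets. With Mycl1, 3 were called (Tnfrsf19 higher, Fas and Tnfrsf1b lower), beside 9.96%. With both vectors, 3 were called (Edar higher, Tnfrsf12a and Tnfrsf21 lower), beside 29.0%. The median difference of the 9 was -0.41, -0.21 and -0.34 in these comparisons in that order, against 0.02, 0.04 and 0.04 over all probe sets tested. These 3 comparisons share the control arrays. For Nfib+Mycl1 against Mycl1, 2 were called (Edar higher, Tnfrsf19 lower), beside 2.96% of all. For Nfib+Mycl1 against Nfib, limma called 0 of 9, with Edar and Tnfrsf1b at an unadjusted p under 0.05, beside 15.3% of all; without the 2 doubted arrays it called 3 (Tnfrsf19 higher, Edar and Tnfrsf1b lower), beside 25.5%.

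Between 3583T3 and 3151T4, 5 of the 9 were called (Tnfrsf12a, Tnfrsf19 and Tnfrsf21 higher, Edar and Tnfrsf1a lower in 3583T3), beside 58.1% of all probe sets. Of responses that differed between the lines, the Nfib response was called for 1 of the 9 (Tnfrsf11b), beside 5.61%. The Mycl1 response was called for 0 of 9 by limma, with 1 at an unadjusted p under 0.05, beside 1.43%, and the Nfib+Mycl1 response for 0 of 9, with 0 at that p, beside 4.94%. Because the genes were chosen from these arrays, the counts are given as description. Without the 2 doubted arrays, 1 of the 9 was called with Nfib (Edar), 3 with Mycl1 and 5 with both (Edar higher; Fas, Tnfrsf12a, Tnfrsf1b and Tnfrsf21 lower), beside 7.89%, 17.5% and 32.7% of all probe sets.

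The genes nearest to a receptor across the 16 arrays were ranked by Pearson correlation, as a description over arrays that share lines and vectors. For Edar they were Flt1 (r = 0.97), Selenbp1 (0.97) and Plekha4 (0.95), and for Tnfrsf19 Phlda2 (0.93), Ina (0.92) and Insm1 (0.92). For Tnfrsf1a they were Exoc7 (0.97), Col4a6 (0.95) and Arhgef40 (0.94), and for Tnfrsf1b Vwa5a (0.92), Cmtm6 (0.89) and Chst14 (0.89). Tnfrsf11b was nearest to Peli1 (0.89), Plaa (0.89) and Tpd52l1 (0.87), and Tnfrsf21 to Wwc2, Atp2c1 and Ube2j1 (0.93 each). Among pairs of the receptors themselves, those with r of 0.70 or more in size were Tnfrsf12a and Tnfrsf21 (0.77), Tnfrsf19 and Tnfrsf1a (-0.77), Edar and Tnfrsf11b (-0.76), Tnfrsf1a and Tnfrsf21 (-0.73), Edar and Tnfrsf19 (-0.70), and Edar and Tnfrsf1a (0.70).

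The wider pathway was read from lists of 18 other TNF receptors, 22 ligands, 32 adaptors and signalling genes and 20 known NF-kB targets. Of the other receptors, 15 were on the array and 4 passed the filter. With Nfib and with Mycl1 limma called 0 of these 4, and with both vectors, beside 29.0% of all probe sets, 2 fell: Tnfrsf22 by 1.31 ± 0.27 (adjusted p 0.00368) and Tnfrsf23 by 1.06 ± 0.32 (adjusted p 0.0234), both decoy receptors of TRAIL in the mouse. Tnfrsf22 was lower on 4 of 4 arrays, by 0.52 in 3583T3 and 2.10 in 3151T4. Tnfrsf23 was lower on 3 of 4, with differences of -0.17 in 3583T3 and -1.96 in 3151T4. The Nfib+Mycl1 response was called as differing between lines for 3 of these 4 other receptors, beside 4.94% of all probe sets. Of the ligands, 15 were on the array, and 12 of them, including Tnf, Fasl, Eda and Tnfsf10, did not pass the filter; Eda, the ligand of Edar, read 2.82 to 3.96. Of the 3 ligands tested, Tnfsf9 fell by 0.68 ± 0.21 (adjusted p 0.0273) and Bdnf by 0.57 ± 0.20 (adjusted p 0.0452) with both vectors, each on 4 of 4 arrays, and limma called 0 with Nfib or Mycl1. These calls held in 10 and 5 of 16 fits that left out 1 array, and that of Tnfrsf23 in 12. The Tnfsf9 call was lost without the 2 doubted arrays, where its adjusted p was 0.0527.

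Of 26 adaptors and signalling genes tested, 0 rose and 2 fell with Nfib, 0 rose and 1 fell with Mycl1, and 2 rose and 4 fell with both, beside 8.46%, 9.96% and 29.0% of all probe sets called in either direction. Ikbkg, the regulatory subunit of the IkB kinase complex, fell by 0.75 ± 0.13 with Nfib (adjusted p 0.00206) and by 0.93 ± 0.13 with both (adjusted p 0.000462), on 4 of 4 arrays each. Sort1, a sorting receptor that pairs with Ngfr for pro-neurotrophins, fell by 1.06 ± 0.24 (adjusted p 0.0121) and 1.40 ± 0.24 (adjusted p 0.0015) in the same comparisons, on 4 of 4 arrays each. Cflar, an inhibitor of Casp8 at death receptors, fell by 0.84 ± 0.20 with Mycl1 (adjusted p 0.0231) on 4 of 4 arrays, and its call held in 11 of 16 fits that left out 1 array. With both vectors Casp8, the initiator caspase, fell by 0.56 ± 0.18 (adjusted p 0.0337) on 3 of 4 arrays, a call held in 10 of 16 such fits, and Tab1 was 0.69 ± 0.19 higher (adjusted p 0.0143) on 4 of 4. The other calls there were Tab2, lower, and Fadd, higher, and both were lost without the 2 doubted arrays.

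Of 19 NF-kB targets tested, 5 rose and 1 fell with Nfib, 0 rose and 3 fell with Mycl1, and 1 rose and 2 fell with both, beside the same 8.46%, 9.96% and 29.0% of all probe sets. The chemokine Cxcl1 averaged 9.91 with Nfib against 6.90 in control cells of 3583T3, and 10.4 against 7.15 in 3151T4, a difference of 3.13 ± 0.52 (adjusted p 0.00149). Il6 averaged 7.56 against 4.58 in 3583T3 and 7.54 against 4.51 in 3151T4, a difference of 3.01 ± 0.65 (adjusted p 0.00966). Ccl5 was 1.88 ± 0.37 higher (adjusted p 0.00467), and each of the 3 was higher on 4 of 4 arrays. Ccl5 read 2.92 to 3.16 in control cells and 2.84 to 3.02 with Mycl1, below the filter's log2 4. It passed the filter only through arrays with the Nfib vector, at 3.84 to 5.38 with Nfib and 3.34 to 5.22 with both. Vcam1 and Csf1 also rose, by 1.46 ± 0.39 and 0.53 ± 0.15 (adjusted p 0.0302 and 0.0441); Vcam1 was not called without the 2 doubted arrays, and the Csf1 call held in 5 of 16 fits that left out 1 array. Tnfaip3, an inhibitor of NF-kB signalling that is also its target, fell by 0.88 ± 0.20 with Nfib (adjusted p 0.0143) and by 0.72 ± 0.20 with both (adjusted p 0.018). Its signal was dim, at 2.28 to 3.13 with Nfib, 2.49 to 3.20 with both and 2.71 to 4.51 in control cells. The Nfib difference was -1.33 in 3583T3 and -0.43 in 3151T4, and that with both -1.20 and -0.24.

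With Mycl1 the chemokines Cxcl2 and Ccl2 fell by 3.00 ± 0.85 and 1.49 ± 0.43 (adjusted p 0.0384 and 0.0436) and Csf1 by 0.61 ± 0.15 (adjusted p 0.0273), each on 4 of 4 arrays. Their calls held in 10, 7 and 11 of 16 fits that left out 1 array. Cxcl2 read 2.07 to 2.32 with Mycl1 and 2.15 to 3.34 with both, below the filter's log2 4. Its control arrays spread from 3.12 to 8.16. With both vectors Ccl5, dim in control cells as given above, was 1.15 ± 0.37 higher (adjusted p 0.0296), and Cxcl2 fell by 2.63 ± 0.85 (adjusted p 0.0311). These calls each held in 10 of 16 fits that left out 1 array, and the Cxcl2 call was lost without the 2 doubted arrays, where its adjusted p was 0.0534. The median difference of the 19 targets was 0.19 with Nfib, -0.33 with Mycl1 and -0.08 with both, against 0.02, 0.04 and 0.04 over all probe sets. The leukocyte markers given above fell in all 3 comparisons, and the fibroblast markers rose with Nfib; their part in the chemokine values was not tested.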

How the data were processed

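Total RNA of 16 samples of the lines 3583T3 and 3151T4 was measured on Affymetrix arrays after amplification, per the labels' protocols. Per the submitters' processing notes, the authors used R 2.11.0 and GCRMA 2.20.0, which gives each probe set 1 signal per array after correcting background by probe sequence and normalizing by quantiles. Levels of different probe sets therefore cannot be compared. That the deposited values are log2 was taken from their range. Genes were named from the platform annotation, where 20380 probe sets had 1 symbol, 691 several and 1555 none.

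Groups came from titles and sources. Probe sets above log2 4 on at least 2 arrays (15799) entered linear models of limma 3.58.1 (lmFit and eBayes with a trend, R 4.3.3). Comparisons of vectors and lines used vector plus line (11 residual degrees of freedom), and responses by line used 8 means (8 residual degrees of freedom). Fold changes of signal near the floor are understated, and the number of arrays limits the precision. Scan dates are not given in the sources used here. The fit was tested on simulated data.

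The genes, lists and tests were chosen with earlier results of these data known. The text names every probe set of the 10 genes, up to 4 called genes of each pathway list per comparison with control, and the 3 genes most correlated with a receptor spanning at least 2 log2 units; further called pathway genes (Csf1 and Vcam1 with Nfib, Tab2 and Fadd with both vectors) were named after their values were seen. Deviations of same-numbered arrays from their group means correlated at -0.72 to 0.11 in 3583T3 and at -0.07 to 0.29 in 3151T4. The -0.72 is between 3583T3 Nfib and Nfib+Mycl1, the groups that hold the 2 doubted arrays, so it cannot decide on pairing. Numbers were not taken as pairs, and these values do not settle whether they are. Alternatives were other filters, 1 probe set per gene, a second quantile normalization, no trend, 8 means, a replicate block, leaving out each array, and leaving out the 2 doubted arrays.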

Additional observations from a re-analysis of the deposited data

Results flagged for a closer look

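The response of Tnfrsf11b to Nfib differed between the lines by the test of that difference. Its brightest probe set, 1449033_at, moved by -0.05 in 3583T3 and by -3.00 in 3151T4, a difference of 2.95 ± 0.69 (2 arrays per group). The direction held in both probe sets, and the second, 1418309_at, with a difference of 1.17 ± 0.41, was not called. No other of the 10 receptor genes was called in a test of a response that differs between lines. Tnfrsf10b came to 1.10 ± 0.36 for Nfib and was not called.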

How the results depend on the processing

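Of 16 calls of receptor genes, 10 held under every alternative, and 0 of 399 alternative fits turned a direction; 369 kept the call. Lost calls were those of Tnfrsf12a, Fas, Tnfrsf1b and Tnfrsf11b given above, and Tnfrsf12a between lines on the control arrays alone. The other settings counted receptor genes as follows. Nfib versus control had 1 gene without the trend, without the 2 doubted arrays or with the replicate block, and 4 with 8 means, against 2. Nfib+Mycl1 versus control had 5 without the 2 arrays and 5 with 8 means, against 3. Nfib+Mycl1 versus Mycl1 had 4 with 8 means, and Nfib+Mycl1 versus Nfib 3 without the 2 arrays and 1 with 8 means. Leaving out each array gave 1 to 3, 2 to 5, 2 to 3 and 0 to 3 for these comparisons, 2 to 3 for Mycl1 versus control, 5 to 6 between lines, and 0 to 2 for the Nfib response by line.

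Over all probe sets, Mycl1 versus control gave 994 with 1 probe set per gene (fewer tested), 2770 without the 2 arrays, 556 with the replicate block and 3442 with 8 means, against 1574. Nfib+Mycl1 versus Nfib gave 1486, 4022, 1428 and 4095 under the same settings, against 2424. Nfib versus control gave 2384 with 8 means, Nfib+Mycl1 versus control 2721 and the lines 5141 with 1 probe set per gene. Nfib+Mycl1 versus Mycl1 gave 206 with the replicate block and 1583 with 8 means. The Mycl1 response by line gave 140 with a filter at log2 6 and 458 without the 2 arrays. The replicate block, which takes the place of line, is given because the arrays share numbers, though whether these pair them is not settled. Leaving out each array gave 798 to 1598 for Nfib versus control, 223 to 2289 for Mycl1 versus control, 2795 to 5013 for Nfib+Mycl1 versus control, 150 to 791 for Nfib+Mycl1 versus Mycl1, and 0 to 3377 for Nfib+Mycl1 versus Nfib. That limma count was 0 without 3151T4 Nfib+Mycl1 replicate 3 or 3151T4 Nfib replicate 4, with 3892 and 3848 at an unadjusted p under 0.05. Responses by line gave 508 to 1253 (Nfib), 104 to 297 (Mycl1) and 460 to 945 (both). The cause of these shifts was not tested. With 2 arrays per group, small differences such as those of Tnfrsf12a were at the limit of precision, and Ngfr was too dim to test.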
